A study of Mus musculus with 8 samples.

Results

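The genes described are TNF and its receptor family in primary mouse keratinocytes: the ligand genes Tnf and Tnfsf10 and the receptor genes Tnfrsf1a, Tnfrsf1b, Tnfrsf10b, Fas, Tnfrsf12a, Tnfrsf21, Ltbr and Edar. They were taken by symbol from the deposited table, and all 10 had a row among its 19457 genes. Keratinocytes, the epithelial cells of the epidermis, were grown from mouse skin and harvested before the plates were confluent. RNA of 4 wild-type (WT) and 4 HOIL1 ΔRING1 (HdR) libraries was sequenced. HdR mice carry an altered HOIL-1L, which is encoded by Rbck1 and lacks the first RING domain, as the allele's name gives it. HOIL-1L belongs, with HOIP and SHARPIN, to LUBAC, the ligase complex that builds linear ubiquitin chains. No treatment is named for either group, and the age of the mice, the construction of the allele and the number of animals behind the 4 libraries are not given in the sources used here. What the p-values capture is thus the variation among libraries, which may be technical.

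TNF superfamily ligands are mostly trimeric membrane proteins, some of them shed from the cell, and their receptors share cysteine-rich extracellular repeats. TNF receptor 1 recruits TRADD, RIPK1, TRAF2 and cIAP proteins, and LUBAC then adds linear ubiquitin chains that hold the IKK complex and drive NF-κB. When this complex is weakened, the same receptor can instead lead to caspase-8 or to RIPK3 and MLKL, and so to cell death. The series title places the study in linear ubiquitination, TNF and NF-κB signalling in keratinocytes, and the comparison asks whether the genes of this pathway differ with the HOIL1 genotype.

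Levels are given per Mb: the bases aligned to a gene for each megabase of the depth-scaled library. They compare a gene between libraries and are not corrected for gene length. WT libraries held 4.78 to 5.43 Gb of aligned bases and HdR libraries 2.31 to 4.31 Gb, so every HdR library was shallower and depth cannot be told apart from genotype. Rbck1 was at 84.5, 89.1, 91.5 and 84.9 per Mb in WT 1 to 4 and at 43.6, 41.1, 45.2 and 44.8 in HdR 1 to 4. This coverage sums the whole gene, so the deleted part cannot be seen in it. Differences were tested with limma. The Benjamini-Hochberg adjustment ran over all 11870 genes that passed the filter, with calls at 0.05. The background was broad: 45% of all tested genes were called, 21.2% higher and 23.8% lower in HdR.

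Of the 10 family members, 8 reached the filter of a mean of 1 per Mb and were tested. Tnf, Tnfrsf10b and Tnfrsf21 rose in HdR, Tnfrsf1a fell, and Tnfrsf1b, Fas, Tnfrsf12a and Ltbr did not pass the test. Tnfsf10 and Edar lay under the filter. All 4 called members had groups that did not overlap, as did 41.1% of all tested genes (19.8% with HdR higher and 21.3% with HdR lower). A share of 4 called out of 8 tested is close to the 45% background, so it is the identity and size of the changes, and not their number, that is described here. In bulk RNA, fewer cells of a type and less RNA per cell cannot be told apart.

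Tnf encodes the founding ligand of the family, a cytokine that keratinocytes can make themselves (GRCm38 chromosome 17, 35199381 to 35202007, minus strand). Its level was 5.84, 6.19, 5.99 and 5.79 per Mb in WT 1 to 4 and 11.3, 16.4, 12.8 and 12.1 in HdR 1 to 4. Every HdR library was above every WT library, and HdR 2 was the highest. The means were 5.95 ± 0.177 and 13.1 ± 2.26 (SD, n = 4 each), a 2.21-fold higher level. The spread was wider in HdR, while the WT libraries lay close together. The log2 fold change, on the log2(value + 1) scale used throughout, was 1.01 ± 0.10 (SE, limma adjusted p = 4.91e-07). It was 0.90 without HdR 2. This change ranked 56th from the top among the 11870 genes tested. In read-pair equivalents (aligned bases divided by 302, the length of a full read pair), these levels rest on 92.8 to 197 pairs per library.

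Tnfsf10 encodes TRAIL, the ligand of the death receptor DR5 (chromosome 3, 27317028 to 27342427). It was listed at 0 in 7 of the 8 libraries, and WT 2 held 0.91 read-pair equivalents. No fold change was computed.

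**Figure D1:**
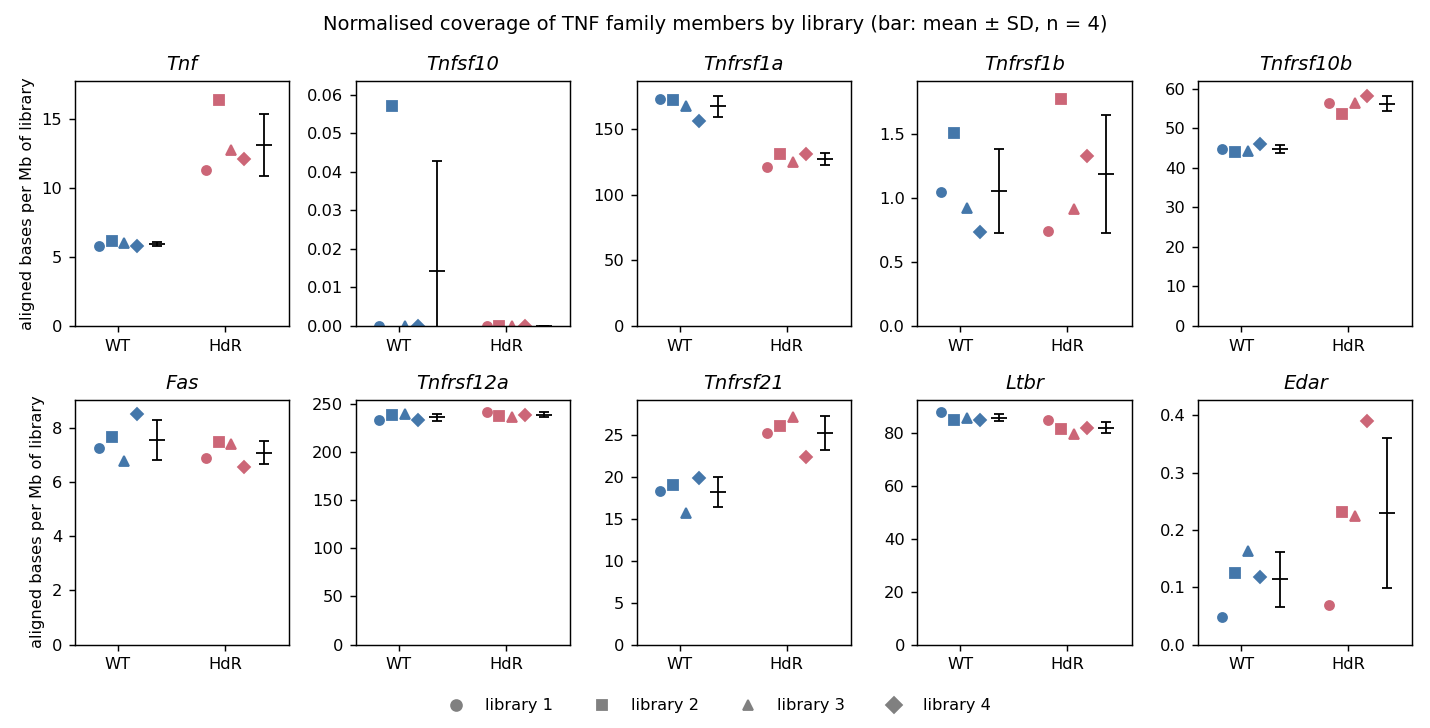
Normalised coverage of the 10 family members in each library, in aligned bases per Mb on linear axes from 0. Marker shapes show the library number and black bars the mean ± SD of 4 libraries. Tnf is above 11 in all HdR libraries and below 6.2 in all WT libraries, Tnfrsf1a is lower in HdR, and Tnfrsf10b and Tnfrsf21 are higher.

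Tnfrsf1a encodes TNF receptor 1, the main receptor for soluble TNF, whose death domain binds TRADD (chromosome 6, 125349362 to 125362484, plus strand). It was at 173, 172, 167 and 156 per Mb in WT 1 to 4 and at 121, 131, 125 and 131 in HdR 1 to 4. The groups did not overlap, and WT 4 was the WT library nearest to HdR. From 167 ± 7.58 in WT to 127 ± 4.62 in HdR (SD, n = 4), the log2 fold change was -0.39 ± 0.041 (SE, limma adjusted p = 1.03e-06). The 95% interval ran from -0.48 to -0.30. On the log2 scale WT 4 lay 0.30 of the way from the remaining WT mean towards that of HdR. Without WT 4 the log2 fold change was -0.42.

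Tnfrsf1b encodes TNF receptor 2, which has no death domain and is best known on immune and endothelial cells (chromosome 4, 145213463 to 145246870). It was low in both groups, at 0.738 to 1.51 per Mb in WT and 0.74 to 1.77 in HdR. These ranges overlap almost fully, and the values rest on 10.2 to 24.0 read-pair equivalents per library. The log2 fold change was 0.08 ± 0.16 (SE, limma adjusted p = 0.71), with a 95% interval from -0.26 to 0.42.

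Tnfrsf10b encodes the mouse TRAIL death receptor DR5 and is a known p53 target (chromosome 14, 69767472 to 69784411). Its level was 44.8, 44.0, 44.2 and 46.1 per Mb in WT 1 to 4 and 56.4, 53.7, 56.3 and 58.3 in HdR 1 to 4. All HdR values were above all WT values, with little spread in either group. The means of 44.8 ± 0.925 and 56.2 ± 1.89 (SD, n = 4) gave a log2 fold change equal to 0.32 ± 0.045 (SE, limma adjusted p = 2.36e-05). Stretches of its annotated transcripts matched transcripts of 5 other genes over at least 151 bases at 95% identity or more, so some reads could be shared.

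Fas encodes the receptor of FAS ligand, another death receptor and p53 target (chromosome 19, 34290666 to 34327772). It was at 7.28, 7.68, 6.81 and 8.54 per Mb in WT 1 to 4 and at 6.89, 7.51, 7.43 and 6.59 in HdR 1 to 4. The groups overlapped. Its log2 fold change was -0.08 ± 0.091 (SE, limma adjusted p = 0.50), with a 95% interval from -0.27 to 0.11.

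Tnfrsf21 encodes death receptor 6 (DR6), which carries a death domain (chromosome 17, 43016555 to 43089189, plus strand). It was at 18.3, 19.0, 15.7 and 19.9 per Mb in WT 1 to 4 and at 25.2, 26.1, 27.2 and 22.4 in HdR 1 to 4. The groups were separate, and HdR 4, the shallowest library, was the lowest of the HdR group. On the log2 scale WT 4, the highest WT library, lay 0.34 of the way from the remaining WT mean towards that of HdR. For Tnfrsf10b and Tnf this fraction was 0.16 and -0.04. The means were 18.2 ± 1.77 and 25.2 ± 2.05 (SD, n = 4). The log2 fold change was 0.45 ± 0.077 (SE, limma adjusted p = 0.000154). When limma's treat test asked for a change beyond 1.2-fold, which 7.47% of all tested genes met, Tnf (adjusted p = 2.85e-05) and Tnfrsf1a (0.0436) were still called. Tnfrsf21 (adjusted p = 0.139) and Tnfrsf10b (0.69) were not, so a change beyond 1.2-fold was not shown for them.

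Tnfrsf12a encodes Fn14, the receptor of TWEAK, and is known to be induced in injured and growing epithelium (chromosome 17, 23675445 to 23677468). Its level was 233, 239, 240 and 233 per Mb in WT 1 to 4 and 242, 238, 236 and 239 in HdR 1 to 4. The values were interleaved, and the SD was 3.46 per Mb in WT and 2.63 in HdR (n = 4). The log2 fold change was 0.02 ± 0.032 (SE, limma adjusted p = 0.72), with a narrow 95% interval from -0.05 to 0.08.

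Ltbr encodes the lymphotoxin β receptor, which signals through TRAF3 to noncanonical NF-κB (chromosome 6, 125306571 to 125313885, minus strand). It was at 87.7, 84.7, 85.5 and 84.7 per Mb in WT 1 to 4 and at 84.7, 81.5, 79.6 and 81.9 in HdR 1 to 4. HdR 1 reached the lower WT values. The log2 difference of -0.06 ± 0.039 (SE, limma adjusted p = 0.196) had a 95% interval from -0.15 to 0.02.

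Edar encodes the ectodysplasin A receptor, which is needed for the formation of hair placodes (chromosome 10, 58600789 to 58675654). It lay between 0.0487 and 0.164 per Mb in WT and between 0.0694 and 0.39 in HdR. That is 0.8 to 3 read-pair equivalents per library, too little to compare. With no filter its log2 fold change was 0.14 ± 0.072 (SE, limma adjusted p = 0.20).

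Promoter windows are shown for both members that rose and have clean windows, and for Ltbr, a member that did not pass the test. Each is the 250 bases before the annotated start in RefSeq (GRCm38.p6), on the strand of the gene, and none of these windows overlaps a GENCODE exon. Capitals mark motif matches, searched on both strands. The motifs were TATAAA, the GC box GGGCGG (written CCGCCC on the other strand), the AP-1 motif TGANTCA and the NF-κB (κB) consensus GGGRNNYYCC. In these patterns N is any base, R is A or G and Y is C or T. The matches do not overlap in the windows shown. The windows lie at chr17:35202008-35202257 (minus strand) for Tnf, chr17:43016305-43016554 (plus strand) for Tnfrsf21 and chr6:125313886-125314135 (minus strand) for Ltbr.
Tnf: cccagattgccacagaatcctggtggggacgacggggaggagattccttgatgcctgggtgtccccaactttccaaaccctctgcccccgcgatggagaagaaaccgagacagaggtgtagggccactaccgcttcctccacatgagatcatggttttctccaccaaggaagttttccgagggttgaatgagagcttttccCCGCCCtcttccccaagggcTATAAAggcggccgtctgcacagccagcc
Tnfrsf21: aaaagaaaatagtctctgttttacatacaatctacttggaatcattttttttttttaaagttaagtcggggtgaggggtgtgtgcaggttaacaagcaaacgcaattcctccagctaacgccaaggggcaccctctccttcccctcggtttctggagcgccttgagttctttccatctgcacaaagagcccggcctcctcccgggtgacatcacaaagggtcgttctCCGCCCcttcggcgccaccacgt
Ltbr: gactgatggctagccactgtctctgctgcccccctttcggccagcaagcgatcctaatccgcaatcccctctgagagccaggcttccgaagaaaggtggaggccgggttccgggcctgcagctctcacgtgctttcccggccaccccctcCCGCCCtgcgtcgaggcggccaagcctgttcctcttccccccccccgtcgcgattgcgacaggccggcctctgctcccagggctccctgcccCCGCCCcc

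The Tnf window held TATAAA at 29 to 24 bases before the start, and the Tnfrsf21 and Ltbr windows did not hold it. TATAAA was present in 13% of 27025 promoter windows of this length. All 3 windows held a GC box, as did 32.9% of windows, and Ltbr held it at 2 places. The κB consensus and the AP-1 motif, found in 7.01% and 6.87% of windows, were not present in these 3 windows. Sites with other letters, or more than 250 bases before the start, were not searched, so their absence is not shown. Of the 10 members, 9 had an entry in the RefSeq table.

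Divided by exon length, the members covered a wide range, and 1 of them, Tnf, changed its place in the order with genotype. Levels in this paragraph are aligned bases per Mb per kb of exon, and the percentiles are among all tested genes with an annotated length. In WT, Tnfrsf12a was highest at 122 ± 1.79 (SD, n = 4), at the 96.6th percentile. Tnfrsf1a followed at 64.5 ± 2.93, Ltbr at 36.4 ± 0.616 and Tnfrsf10b at 8.22 ± 0.17, with no overlap between neighbours in this order. Tnfrsf21 (4.43 ± 0.432), Fas (3.68 ± 0.355) and Tnf (3.63 ± 0.108) came next, and here neighbours overlapped. Tnfrsf1b was at 0.276 ± 0.0864, the 2.3rd percentile, and Edar and Tnfsf10 were lower still. In HdR the order was the same except that Tnf, at 8.01 ± 1.38, passed Fas (3.45 ± 0.212) and Tnfrsf21 (6.13 ± 0.499). Every HdR library had more Tnf than Tnfrsf21 on this scale, and no WT library did. Tnf moved from the 35.3rd to the 56.8th percentile. With the longest transcript in place of all exons the WT order was the same, but the level of Tnfrsf12a was 240 and that of Tnfrsf10b 14.1. The HdR means of Tnf and Tnfrsf21 were then 8.01 and 6.95, and in HdR 1 Tnf was no longer above Tnfrsf21.

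**Figure D2:**
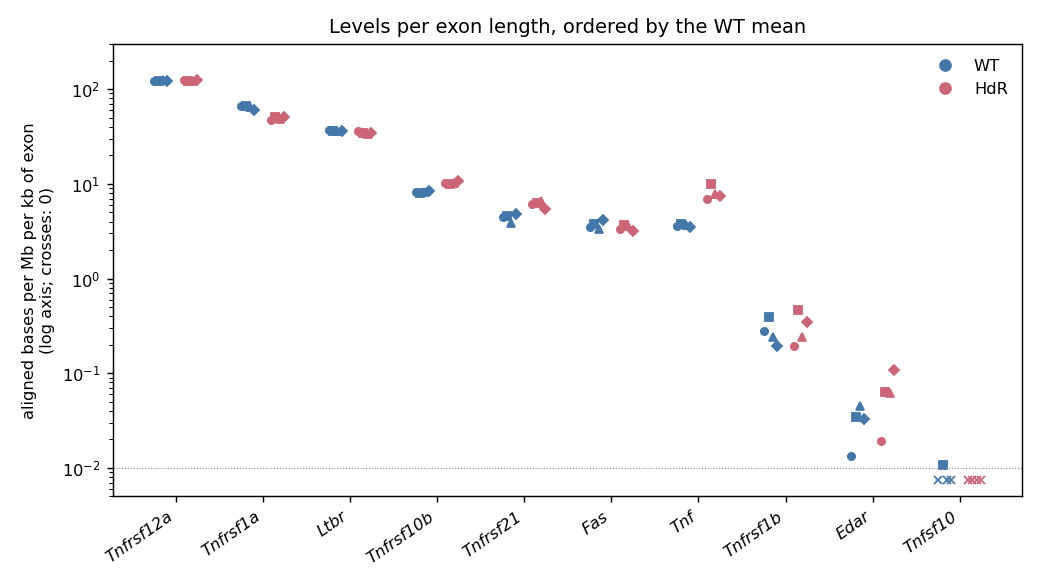
Levels of the 10 members per exon length, in aligned bases per Mb per kb on a log axis, ordered by the WT mean. Each point is a library, and crosses under the dotted line are libraries at 0. Tnfrsf12a, Tnfrsf1a and Ltbr are the highest members in both genotypes, and Tnf is the member that changes its place in HdR.

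Ratios of members within a library do not depend on depth scaling, and 6 are described. They were chosen after the levels were seen, so no test is given. The log2 ratio of Tnf to Tnfrsf1a was -4.81 ± 0.055 in WT and -3.29 ± 0.20 in HdR (SD, n = 4), a difference of 1.52. The log2 ratio of Tnfrsf1a to Ltbr went from 0.96 ± 0.058 to 0.63 ± 0.077. These receptor genes are neighbours on chromosome 6, 35.5 kb apart with 1 protein-coding gene between them. The ratio of Tnfrsf10b to Fas rose by 0.42, that of Tnfrsf21 to Tnfrsf12a by 0.45, and that of Tnf to Ltbr by 1.19 on the log2 scale. The groups did not overlap in these 5 ratios, each of which has at least 1 called member. The ratio of Tnfrsf1b to Tnfrsf1a differed by 0.54, with overlapping groups.

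The genes nearest to Tnf in pattern were found across the 8 libraries. Likeness was the root-mean-square (RMS) difference between log2(value + 1) levels after each gene was centred on its own mean. A small value means a similar pattern and size of change on that scale, which shrinks the folds of low genes. The 5 nearest to Tnf were Wfdc2 (0.088), Fam149a (0.127), S100a7a (0.137), Ddah1 (0.142) and Dhh (0.143). Wfdc2 went from 1.5 ± 0.168 to 4.18 ± 0.63 per Mb (SD, n = 4) and Dhh from 1.96 ± 0.345 to 5.31 ± 0.872, larger folds than that of Tnf. Fam149a went from 3.45 ± 0.262 to 7.16 ± 0.573 per Mb and S100a7a, of the psoriasin family, from 4.03 ± 0.301 to 9.52 ± 0.841. The 5 nearest to Tnfrsf1a were Wdr54 (0.031), Slc25a28 (0.033), Babam2 (0.035), Fam83g (0.036) and Tecr (0.038).

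Most other ligands of the family were at or near 0, also those of the abundant receptors. Of 18 ligand genes listed, 14 had a row and 4 were tested, of which Tnf and Tnfsf15 rose and none fell. Over all tested genes 45% were called, 21.2% higher and 23.8% lower, and 4 genes are too few to compare with these shares. The ligand of Tnfrsf12a, Tnfsf12 (TWEAK), had signal in 2 libraries, and the FAS ligand gene Fasl in 3. Exons of Tnfsf12 overlap Tnfsfm13 on the same strand, with transcripts that match over 731 bases at 99.59% identity. Reads of Tnfsf12 could thus be shared or lost, so its low values do not show that the gene is silent. Lta, which lies 1.16 kb from Tnf, had signal in 3 libraries and Ltb in 5, none above 0.24 per Mb. So Tnf rose while its neighbours stayed too low to compare. Tnfsf15, which encodes TL1A, was at 3.77 to 4.86 per Mb in WT and 6.51 to 8.08 in HdR (log2 fold change 0.64 ± 0.10, SE, limma adjusted p = 7.04e-05). Its receptor gene Tnfrsf25 had a mean of 0.156 per Mb in WT and 0.123 in HdR. Eda, the ligand gene for Edar, was at 4.72 ± 0.527 and 5.16 ± 0.25 (SD, n = 4, limma adjusted p = 0.375), and Tnfsf9 was at 1.98 ± 0.159 and 2.06 ± 0.413 (limma adjusted p = 0.863).

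Tnfsf18, the gene for GITR ligand, went the other way but lay under the filter. It was at 1.71, 1.10, 1.67 and 1.11 per Mb in WT 1 to 4 and at 0.33, 0.56, 0.663 and 0.381 in HdR 1 to 4, with no overlap. It is named because of these values. With no filter its log2 fold change was -0.69 ± 0.12 (SE, limma adjusted p = 0.00205).

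Among the receptors that were called, Tnfrsf23 and Tnfrsf22 had the largest rises. Of 28 receptor genes listed, 26 had a row and 16 were tested, with 6 higher (37.5%), 3 lower (18.8%) and 7 not called, where 21.2% of all tested genes were higher and 23.8% lower. The median log2 fold change was 0.196, against -0.010 over all tested genes. Tnfrsf23 and Tnfrsf22 encode mouse decoy receptors for TRAIL and lie 16.1 kb apart on chromosome 7. Tnfrsf23 was at 31.5 to 40.4 per Mb in WT and 62.2 to 67.2 in HdR, the largest fold among tested receptors (log2 fold change 0.83 ± 0.067, SE, limma adjusted p = 7.02e-08). Tnfrsf22 was at 14.6 to 16.8 in WT and 21.3 to 26.8 in HdR (0.58 ± 0.075, adjusted p = 9.68e-06). Tnfrsf26, 6.08 kb from Tnfrsf22, was under the filter, at 0.0571 to 0.236 in WT and 0.481 to 0.963 in HdR. It is named because of these values, which rest on only 1 to 13.9 read-pair equivalents per library. Its log2 fold change with no filter was 0.59 ± 0.094 (SE, limma adjusted p = 0.00113). Exons of Tnfrsf23 and Tnfrsf26 overlap a gene on the other strand, and the strand setting is not given, so reads could be shared. Transcripts of Tnfrsf22 matched those of 20 other genes over 151 bases or more at 95% identity or more, the longest match being 766 bases, so its reads could be shared as well.

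Tnfrsf4 (OX40) and Tnfrsf18 (GITR), receptors best known on T cells, are 9.55 kb apart on chromosome 4. The summed T cell markers (given with the other markers at the end) were mostly Thy1, with the others at or near 0. Their part in the values of these receptor genes was not tested. Tnfrsf4 rose from 4.40 ± 0.36 to 6.52 ± 0.708 per Mb and Tnfrsf18 from 11.3 ± 0.442 to 14.2 ± 1.03 (SD, n = 4, limma adjusted p = 0.000911 and 0.00313). Tnfrsf18 has an overlapping gene on the other strand, and its call was lost after thinning to the smallest library (adjusted p = 0.0884). Tnfrsf11b, which encodes osteoprotegerin, a soluble decoy receptor for RANKL and TRAIL, fell from 8.60 ± 0.97 to 6.25 ± 1.25, and Tnfrsf19 (TROY) fell from 7.42 ± 1.40 to 4.87 ± 1.28 (limma adjusted p = 0.00692 and 0.0146). The groups overlapped in both. Eda2r, the receptor for the other ectodysplasin isoform, was at 4.24 ± 1.58 and 6.96 ± 2.21 and did not pass (limma adjusted p = 0.105).

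**Figure D3:**
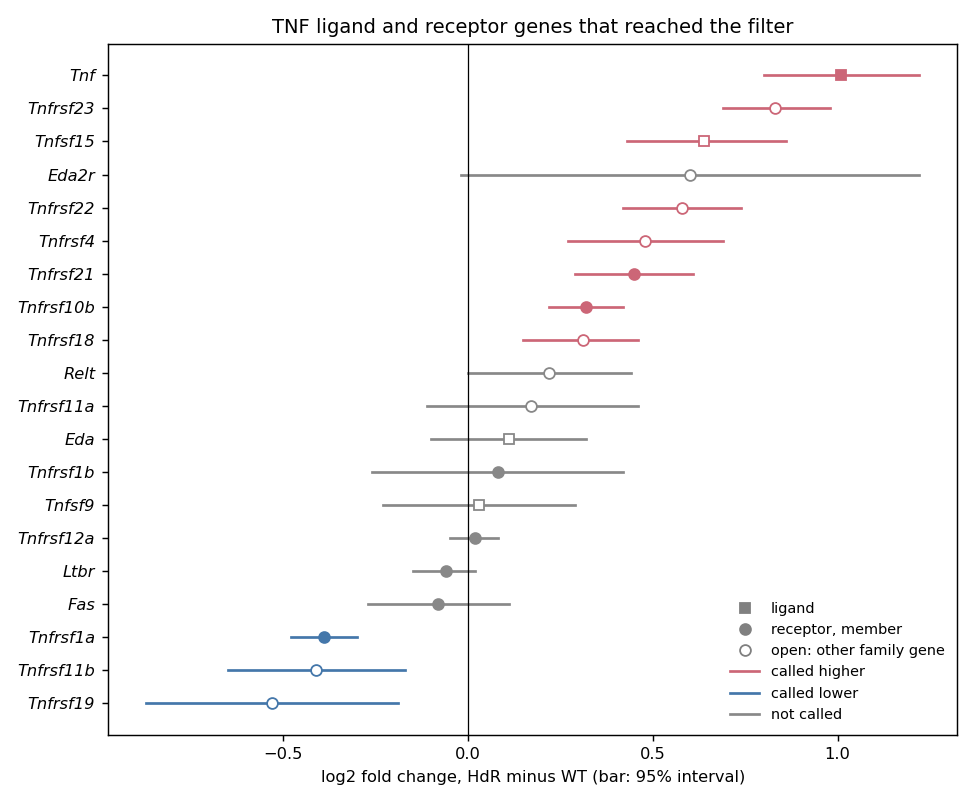
Log2 fold change (HdR minus WT) with its 95% interval for the 20 TNF ligand and receptor genes that were tested. Squares are ligands, circles receptors, filled symbols the family members described first. Tnf is at the top at 1.01 and Tnfrsf1a is the only filled symbol called lower, at -0.39.

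**Figure D4:**
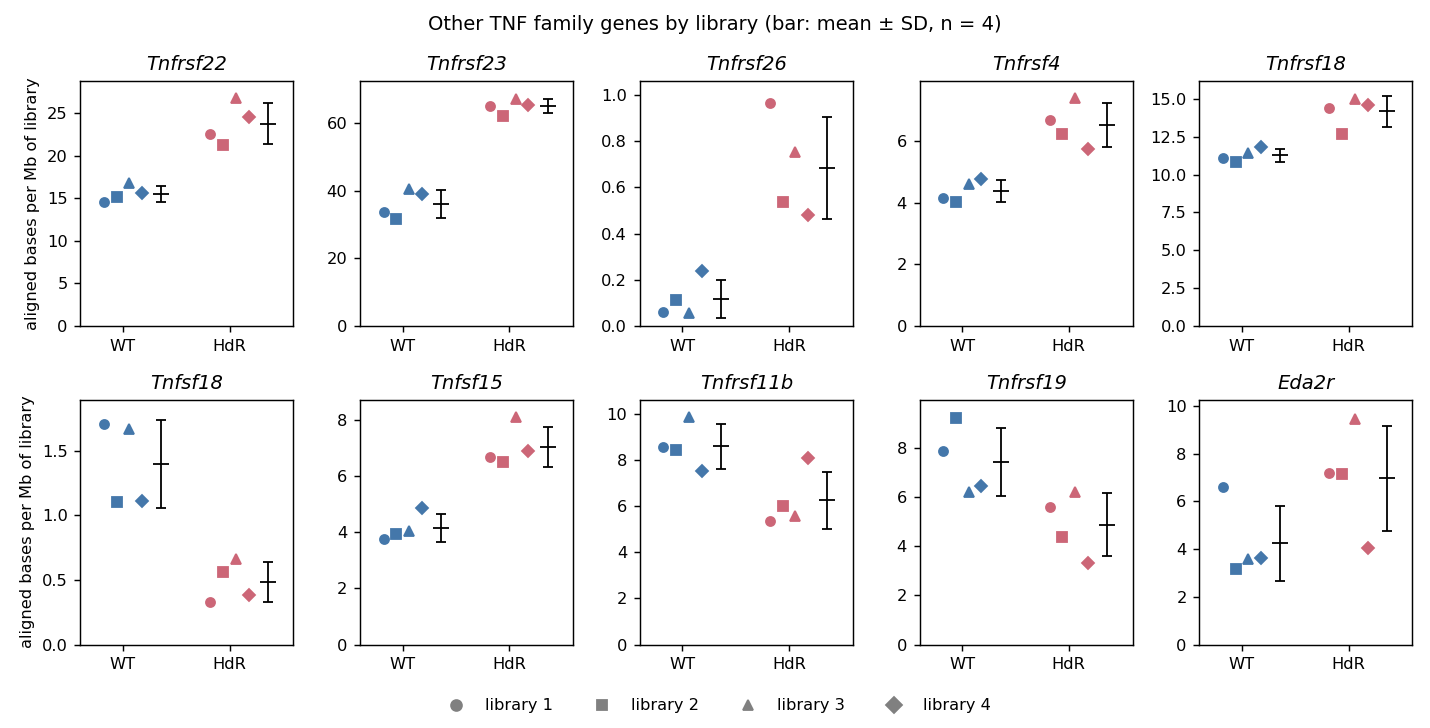
Normalised coverage of 10 further TNF family genes in each library, in aligned bases per Mb on linear axes from 0, with the mean ± SD of 4 libraries. The chromosome 7 genes Tnfrsf22, Tnfrsf23 and Tnfrsf26 are higher in every HdR library, and Tnfsf18 is lower in every HdR library. Tnfrsf26 and Tnfsf18 lay under the filter.

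Among the receptor adaptors and death signalling genes, log2 fold changes lay between -0.28 and 0.40. Of 16 adaptor and death signalling genes, 15 were tested, with 5 higher, 1 lower and 9 not called (median log2 fold change 0.025). The 6 called genes are a share near the 45% of all tested genes. By direction, 33.3% were higher and 6.67% lower, against 21.2% and 23.8% of all tested genes. Tradd, the adaptor that binds TNF receptor 1 directly, was at 42.5 ± 3.51 and 43.3 ± 2.89 per Mb (SD, n = 4), and Ripk1 at 52.6 ± 1.26 and 50.3 ± 0.895. Neither passed (limma adjusted p = 0.77 and 0.256), although the Ripk1 groups did not overlap. Higher genes were Mlkl (log2 fold change 0.40), Traf3 (0.36), Cflar (0.20), Ripk3 (0.19) and Casp8 (0.15). The lower one was Traf6 (-0.24). With limma's treat test for a change beyond 1.2-fold, 0 of the 15 were called at an adjusted p of 0.05 and 2 had an unadjusted p under 0.05. Casp8 lost its call without WT 4, HdR 2 or HdR 4 (adjusted p = 0.0533, 0.0667 and 0.0859).

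Of 13 genes that act in the shedding of TNF or on its transcript, 4 were higher, 4 lower and 5 not called. That is 30.8% in each direction, against 21.2% higher and 23.8% lower over all tested genes. Adam17, the sheddase that releases TNF and its receptors, was at 92.4 ± 3.09 and 94.1 ± 1.87 per Mb (SD, n = 4, limma adjusted p = 0.606). Timp3, which encodes an inhibitor of that sheddase, fell from 234 ± 20.1 to 141 ± 9.81 (limma adjusted p = 1.47e-06). Rhbdf2, whose iRhom2 product helps ADAM17 mature, fell by 0.16 and its relative Rhbdf1 rose by 0.14 on the log2 scale. Zfp36, which encodes tristetraprolin, a protein that binds the Tnf transcript and promotes its decay, fell from 136 ± 6.37 to 113 ± 2.37 (limma adjusted p = 3.73e-05). Zfp36l1 fell by 0.37, while the RNase gene Zc3h12a, the roquin gene Rc3h1 and Khsrp rose by 0.23, 0.21 and 0.24 on the log2 scale. Rc3h1 lost its call without HdR 3 (adjusted p = 0.0671).

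Of 20 TNF-inducible genes, 15 were tested, with 9 higher, 4 lower and 2 not called (median log2 fold change 0.223). Over all tested genes 21.2% were higher and 23.8% lower. Tnfaip3, the gene for the feedback inhibitor A20, was at 27.3, 26.6, 30.8 and 35.2 per Mb in WT 1 to 4 and at 96.8, 115, 106 and 100 in HdR 1 to 4. HdR 2, the library highest in Tnf, was also the highest here, and it had the highest summed fibroblast markers. Without HdR 2 the log2 fold change of Tnfaip3 was 1.72, against 1.77 with it. The chemokine genes Cxcl2 and Ccl2 rose from 14.7 ± 2.46 to 44.5 ± 5.52 and from 6.90 ± 0.942 to 19.5 ± 2.63 (SD, n = 4). The adhesion molecule gene Icam1, Cxcl1, and the NF-κB inhibitor gene Nfkbia rose by 0.53, 0.69 and 0.48 on the log2 scale, and Tnip1 and Nfkb2 by 0.26 and 0.19. Ccl20 fell from 17.3 ± 3.11 to 12.6 ± 1.71, and Relb, Bcl3 and Sod2 fell by 0.24, 0.23 and 0.23 on the log2 scale. The call of Tnfaip2 (log2 fold change 0.22) was lost without WT 1, WT 4, HdR 1 or HdR 2 (adjusted p = 0.0721, 0.0703, 0.0857 and 0.09).

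**Figure D5:**
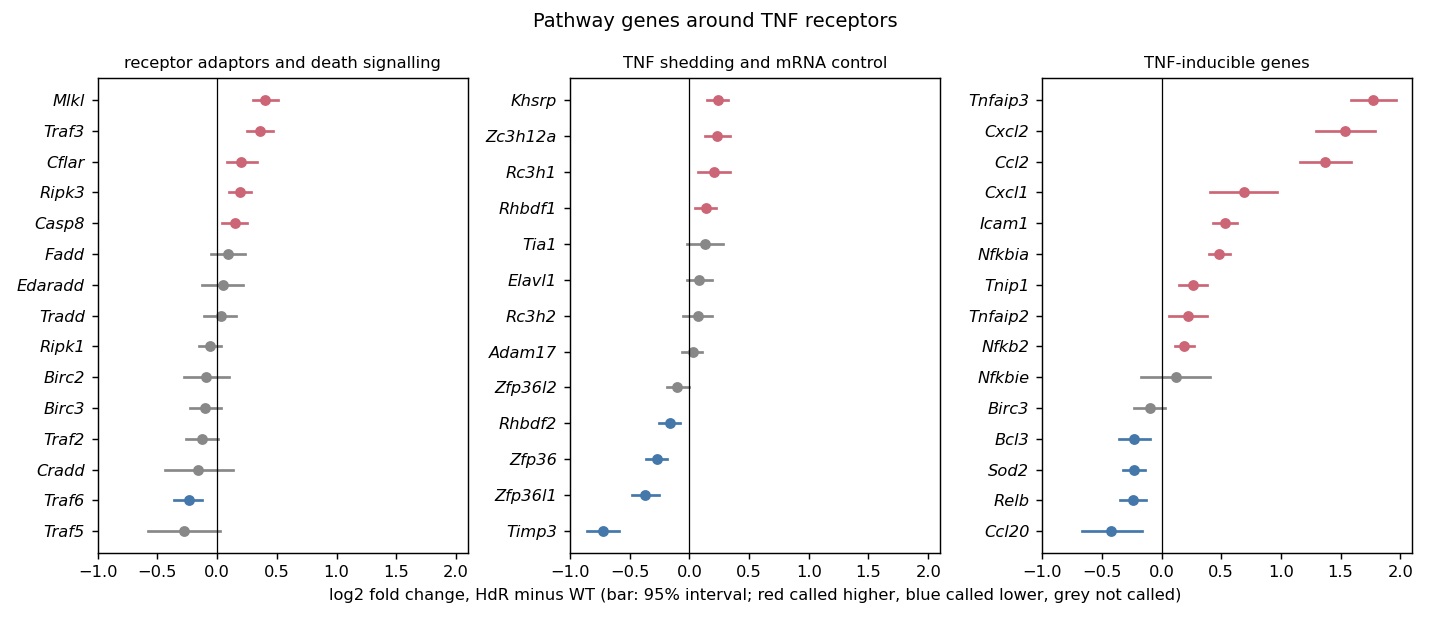
Log2 fold change (HdR minus WT) with its 95% interval for the tested genes of 3 pathway lists, on a shared axis. Tnfaip3, Cxcl2 and Ccl2 exceed 1 among the TNF-inducible genes, while adaptor and death signalling genes lie between -0.28 and 0.40.

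Markers of other cells that make TNF or carry its receptors were examined beside these results. Keratinocyte markers were abundant, with Krt5 at 17300 ± 851 (WT) and 18600 ± 311 (HdR) per Mb (SD, n = 4). Of 9 myeloid and Langerhans cell markers with a row, Adgre1, Lyz2 and Cd207 were at 0 in all 8 libraries and Ptprc had signal in 1 WT library. The summed level of this list was 52.1 to 66.1 per Mb in WT and 42.9 to 43.9 in HdR, most of it from Cd68. Itgam fell from 5.33 ± 0.93 to 3.59 ± 0.618 (SD, n = 4), with overlapping groups, and Csf1r had means of 0.244 and 0.208. Cd74 went the other way, at 0 to 0.0624 per Mb in WT and 0.0694 to 0.315 in HdR without overlap. It rests on at most 3.78 read-pair equivalents per library. H2-Aa had signal in 1 HdR library. Of 4 T cell markers with a row, Cd4 was at 0 in all libraries, and the sum was 2.29 to 3.86 in WT and 1.88 to 2.44 in HdR, most of it from Thy1. The 1 mast cell marker with a row summed to at most 0.195. Summed fibroblast markers were 0.118 to 0.73 in WT and 0.121 to 3.86 in HdR, the highest in HdR 2, and endothelial markers 0.663 to 1.17 and 1.54 to 2.14. The 7 melanocyte markers summed to 50.3 to 57.9 in WT and 26.2 to 28.6 in HdR. The part of the myeloid, T cell, fibroblast, endothelial and melanocyte markers in the changes of the TNF family was not tested.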

How the data were processed

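RNA of 4 WT and 4 HdR libraries was measured by RNA sequencing (NEBNext Ultra II kit, NovaSeq, per the labels' protocols). The authors deposited 1 table of signal: coverage, read from the values as whole-number sums of aligned bases per gene symbol, with 302, 604 and 906 as the commonest non-zero values. Per the submitters' processing notes, GRCm38 was the genome. The aligner, counter, annotation, strand and filters are not given in the sources used here. Coverage is not a count of molecules, so no counting interval or floor is given.

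Libraries were scaled with trimmed-mean (TMM) factors (0.974 to 1.01, trimming 30% of log ratios and 5% of levels). log2(value + 1) of genes with a mean of at least 1 was fitted with limma 3.58.1 (R 4.3.3, trend, robust, statmod 1.5.0), genotype only, two-sided. Tested on simulated data for HdR against WT (11826 genes), the fit found 78.8% of the 1.5-fold and 99% of the 2-fold changes, and 5.88% of its calls were false. In that simulation few genes changed, all genes had the same dispersion and the libraries were independent. In the real data 45% of tested genes were called and depth went with genotype, so these rates need not hold there. Coordinates and exon lengths came from GENCODE vM21 (GRCm38; 19123 symbols matched, 334 did not), promoters from RefSeq, near-copies from blastn 2.17.0, figures from Python 3.11.15 and matplotlib 3.10.9.

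The members and gene lists were chosen with earlier results of these data known. Named genes were the 10 members, all called genes of each of 5 pathway lists (and, where a list had fewer than 4 called, further genes in order of p up to 4), Rbck1, and the 5 genes nearest in pattern to Tnf and to the member that fell most. Tnfsf12, Fasl, Lta, Ltb, Tnfrsf25, Tnfsf18, Tnfrsf26, Eda2r, Tradd, Ripk1, Adam17 and the single marker genes are outside this rule and were chosen after their values were seen. Alternatives were other scalings, filters and pseudocounts (0.1 and 5), limma-voom, limma's treat test against a fold of 1.2, the replicate number as a block, thinning, leaving out each library, and leaving out WT 4 and HdR 4 together.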

Additional observations from a re-analysis of the deposited data

Results flagged for a closer look

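Over 124 groups of 4 libraries (the tested family and pathway genes in each genotype), 2 held a library that stood far from the other 3 by Dixon's gap criterion, and chance gives about 1 in 20. Eda2r was at 6.59 per Mb in WT 1 against 3.17 to 3.61 in the other WT libraries. Adam17 was at 96.9 per Mb in HdR 4 against 92.8 to 93.4 in the other HdR libraries. No family member described above was among them.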

How the results depend on the processing

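Tnf, Tnfrsf1a, Tnfrsf10b and Tnfrsf21 kept their direction in all 20 alternatives and their calls in 20, 20, 19 and 19 of them, the exception being the test against a fold of 1.2. Their log2 fold changes ran from 0.72 (pseudocount 5) to 1.13, -0.44 to -0.35, 0.30 to 0.36 and 0.38 to 0.54. Tnfrsf1b, Fas, Tnfrsf12a and Ltbr were called in none of the alternatives in which they were tested. Over all genes 5346 were called, and the share of calls that were higher was 47.1%, against 57.7% with upper-quartile scaling (3113 higher and 2278 lower, against 2517 and 2829). Against a fold of 1.2, 887 genes were called, 343 higher and 544 lower. There, 1 family member was higher where the test against no change had 3. Receptor genes had 2 higher and 1 lower (6 and 3 against no change), adaptors 0 and 0 (5 and 1), shedding and mRNA control genes 0 and 1 (4 and 4), and TNF-inducible genes 5 and 0 (9 and 4). Ligand genes called lower were 1 in place of 0 with no filter and without WT 4 and HdR 4 together, and 0 to 1 when each library was left out (1 without HdR 1 or HdR 4). In each case the gene was Tnfsf18, which then passed the filter. Adaptors called lower were 2 in place of 1 with limma-voom and 1 to 2 when each library was left out (2 without HdR 2 or HdR 3). Of the other tested pathway genes' values under the alternatives, 1023 stayed on the same side of the threshold, 39 lost their call, 12 gained one and 0 reversed. Eda2r gained its call without WT 1 (adjusted p = 0.0107) and without HdR 4 (0.00943).

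Replicate numbers are shared by the groups, but the deviations of same-numbered libraries correlated at 0.028, -0.068, -0.222 and 0.020, so the numbers are not taken as pairs. With the replicate number as a block, 4755 genes were called, and the 3 higher and 1 lower family members stayed called (Tnf adjusted p = 6.04e-06). Low depth limits Tnfrsf1b, Edar and Tnfsf10, and HdR 4 is the shallowest library.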
